A study of Mus musculus with 10 samples.

Results

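The transcription factors that set the fate of helper T cells were examined at the level of DNA methylation: *Tbx21*, *Eomes*, *Gata3*, *Maf*, *Rora*, *Batf*, *Bcl6*, *Tcf7* and *Prdm1*. Their windows were all those of 1000 bp, with a step of 500 bp, that overlap the RefSeq span of 1 of these 9 genes in GRCm38 (mm10) or the 5 kb on either side of it, and they number 393 of the 446336 windows of the series. Of these, 381 have at least 20 CpG calls in every mouse, as do 421759 of all windows. The span follows the gene record of the annotation, which for *Gata3* and *Prdm1* also holds predicted transcripts that begin far upstream of the curated ones. On the plus strand lie *Eomes* (chr9:118478186-118486132, 27 windows), *Rora* (chr9:68653404-69388246, 146 windows) and *Batf* (chr12:85686720-85709087, 14 windows). On the minus strand lie *Tbx21* (chr11:97098007-97115331, 24 windows), *Gata3* (chr2:9857078-9887953, 40 windows), *Maf* (chr8:115703253-115706894, 13 windows), *Bcl6* (chr16:23965050-23988866, 33 windows), *Tcf7* (chr11:52246527-52283383, 34 windows) and *Prdm1* (chr10:44437174-44528558, 62 windows). Lung DNA came from 10 female BALB/c mice, bought at an age of 8 weeks. It was captured in pieces by RNA probes and read after bisulfite treatment, which converts unmethylated cytosines. The 3 saline mice received saline only. The 3 OVA-induced mice were sensitized to ovalbumin (OVA) by 2 injections of 50 µg into the abdomen with an aluminium adjuvant, challenged through the nose with 25 µg on 4 days, and given vehicle by mouth. The 4 DSE-treated mice went through the same sensitization and challenge and received an ethanol extract of *Descurainia sophia* seeds (DSE) by mouth for 7 days; their labels call them Herb. The study had 7 mice in each group, and how the mice for methylation were chosen is not given in the sources used here.

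Naive CD4 T cells take on different programmes under the cytokines they meet. T-bet, encoded by *Tbx21*, drives the Th1 programme, and its relative *Eomes* acts in cytotoxic and memory T cells and natural killer cells. GATA3 is the master factor of Th2 cells, which make IL-4, IL-5 and IL-13 in allergic airways, and c-Maf, encoded by *Maf*, binds the *Il4* promoter. RORα, encoded by *Rora*, takes part in Th17 cells and is required by group 2 innate lymphoid cells. BATF is an AP-1 factor needed by Th17, Th9 and follicular helper cells. BCL6 directs follicular helper cells, TCF-1, encoded by *Tcf7*, keeps T cells in a naive or memory state, and Blimp-1, encoded by *Prdm1*, represses *Bcl6* and drives terminal differentiation. None of these genes is private to T cells: *Rora*, *Maf* and *Prdm1* are also active in stromal, epithelial or myeloid cells. Methylation of CpGs at active promoters is low as a rule, whereas methylation within a gene body can accompany transcription.

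The stretches below lie in windows whose differences are described further on, and show CpGs of those windows, not all of which were read. Each is the run of 200 bases with the most CpGs within the named window, or within the 500 bp shared by overlapping windows. Bases of untranslated exons were left out. All are the plus strand of GRCm38, the C57BL/6 reference, and capitals mark CpGs, the bases at which methylation can be read. The first lies upstream of the curated start site of *Prdm1*, in predicted transcripts only, at chr10:44476501-44476700.
Prdm1 upstream: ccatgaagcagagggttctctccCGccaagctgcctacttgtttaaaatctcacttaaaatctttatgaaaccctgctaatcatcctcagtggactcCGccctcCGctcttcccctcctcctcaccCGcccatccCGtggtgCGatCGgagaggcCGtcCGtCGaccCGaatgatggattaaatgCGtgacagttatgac
The next lies in the far upstream flank of *Prdm1*, at chr10:44530001-44530200.
Prdm1 far upstream: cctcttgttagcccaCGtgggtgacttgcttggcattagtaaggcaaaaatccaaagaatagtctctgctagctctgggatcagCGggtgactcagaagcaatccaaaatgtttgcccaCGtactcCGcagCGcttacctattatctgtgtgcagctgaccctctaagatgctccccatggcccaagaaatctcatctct
In intron 2 of *Rora* the stretch is chr9:69259501-69259700.
Rora intron 2: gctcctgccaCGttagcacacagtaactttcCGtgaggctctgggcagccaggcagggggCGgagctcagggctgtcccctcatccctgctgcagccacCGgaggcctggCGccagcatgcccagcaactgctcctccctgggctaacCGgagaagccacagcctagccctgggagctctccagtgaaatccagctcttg
Upstream of the second *Rora* start site it is chr9:69288762-69288961.
Rora before the second start: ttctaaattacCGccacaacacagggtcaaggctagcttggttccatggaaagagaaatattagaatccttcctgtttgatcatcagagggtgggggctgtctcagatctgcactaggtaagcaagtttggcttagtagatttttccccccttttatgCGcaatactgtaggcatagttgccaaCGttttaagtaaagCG
In the upstream flank of *Maf* it is chr8:115711229-115711428.
Maf upstream: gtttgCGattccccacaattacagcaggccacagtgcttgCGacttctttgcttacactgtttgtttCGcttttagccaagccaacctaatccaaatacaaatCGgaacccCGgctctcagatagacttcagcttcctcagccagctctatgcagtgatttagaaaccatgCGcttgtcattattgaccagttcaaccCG
In and around exon 3 of *Gata3* it is chr2:9874639-9874838, which is the densest in CpGs of those shown, with 18.
Gata3 exon 3: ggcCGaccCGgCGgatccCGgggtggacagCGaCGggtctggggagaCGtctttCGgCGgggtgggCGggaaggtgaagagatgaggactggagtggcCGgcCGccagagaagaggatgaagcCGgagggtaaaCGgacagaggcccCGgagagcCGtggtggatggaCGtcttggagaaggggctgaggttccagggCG
Before the start site of *Batf* it is chr12:85686144-85686343, with 7 CpGs. Few or none of the calls of its window came from these CpGs, as set out below.
Batf upstream: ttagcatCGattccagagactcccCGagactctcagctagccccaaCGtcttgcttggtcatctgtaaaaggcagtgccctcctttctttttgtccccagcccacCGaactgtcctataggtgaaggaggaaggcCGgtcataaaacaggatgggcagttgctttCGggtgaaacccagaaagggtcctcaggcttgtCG
The counts give the calls of a window as a whole, so the share of single CpGs in a difference is unknown.

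The values are counts of methylated and unmethylated CpG calls per window and mouse, and a methylation level is the percent of calls that were methylated. Total calls per mouse ran from 306656737 to 410836272, of which 345472 to 465243 fell in the windows of these genes, with each call in an overlap counted in 2 windows. The median window of these genes held 683 calls per mouse. In the shallowest mouse of a window the 95% Wilson interval ran, for example, from 33.4% to 38.7% at 1241 calls and from 54.6% to 81.9% at 40 calls. Such intervals cover counting error only. Whole lung holds many cell types, so a different share of a cell type and a different methylation within it cannot be told apart. Marker lists moved with the groups. The start sites of 6 genes expressed by all leukocytes (*Ptprc*, *Cd53*, *Coro1a*, *Laptm5*, *Itgb2* and *Arhgdib*) averaged 49.0 to 51.1% in the saline mice, 37.9 to 41.9% in the OVA-induced and 38.1 to 42.1% in the DSE-treated mice. All 6 were lower in OVA vs. saline and 5 passed limma; in DSE vs. OVA 0 passed. T cell markers averaged 65.7 to 74.5%, 60.8 to 63.3% and 61.9 to 67.1% in the same order, with 0 of 7 past limma in any comparison. All 4 eosinophil start sites had lower levels in both OVA vs. saline and DSE vs. saline (medians -5.92 and -6.28 points) with 0 past limma. Over whole genes, the eosinophil markers averaged 60.0 to 61.9% in saline, 56.7 to 58.5% in OVA-induced and 54.7 to 57.2% in DSE-treated mice, and 2 of 4 passed as lower in both comparisons. B cell start sites gave 0 of 3, whereas 2 of 2 endothelial start sites were higher in both OVA vs. saline and DSE vs. saline. Lung epithelial start sites averaged 22.6 to 23.8% in saline, and 1 of 5 passed as higher for OVA vs. saline, with 2 of 5 for DSE vs. saline. What part of the differences below goes with these shifts was not tested. The counts at the lists can be read against the share of all 19140 start sites past limma, which for OVA vs. saline was 4.56% higher and 2.64% lower, and for DSE vs. saline 14.4% and 3.52%.

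In the saline mice, the 9 genes differed widely in their mean level over all their windows. *Rora* stood highest at 59.7% ± 0.17 (SD, n = 3), followed by *Tcf7* at 55.2%, *Prdm1* at 49.8%, *Tbx21* at 45.6%, *Batf* at 41.5%, *Bcl6* at 32.7%, *Gata3* at 31.0% and *Eomes* at 19.8%. *Maf*, a gene with a single exon in its curated transcript, was lowest at 10.6% ± 0.54 (SD, n = 3). Between each pair of neighbours in this order the saline mice did not overlap. Among all 27943 genes measured, *Maf* lay at the 2.79th percentile, *Eomes* at the 7.31st and *Rora* at the 79.2nd. Under 20% methylation lay 31.5% of the windows of the 9 genes and 22.3% of all windows, and over 80% lay 20.7% and 22.4%. Within the set, 10 of the 13 *Maf* windows and 20 of the 27 *Eomes* windows were under 20%, against 22 of the 138 *Rora* windows. By position, the median window held 1.92% at start sites, 64.9% in exons and 69.5% in introns.

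**Figure D1:**
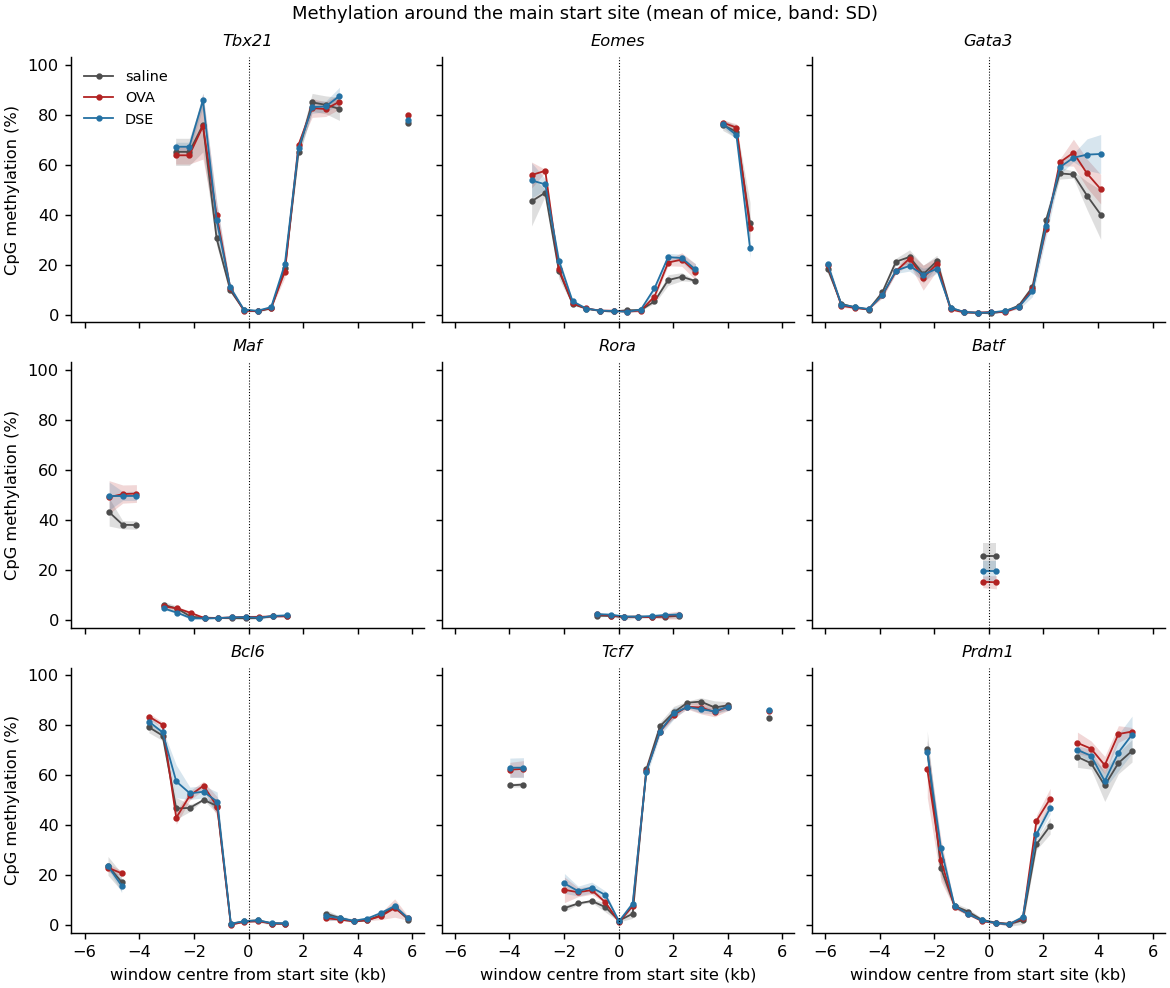
CpG methylation (percent) of windows with at least 20 calls in every mouse against the distance of the window centre from the main start site in kb, negative upstream, for saline (grey, n = 3), OVA-induced (red, n = 3) and DSE-treated mice (blue, n = 4); points are means over mice and bands their SD. All genes but *Batf* sink to under 10% at the start site, and *Batf* has 2 windows there, with saline at 25.5%.

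Around their start sites, 8 of the 9 genes lay in long stretches under 10% methylation in the saline mice. The stretch ran 5500 bp at *Maf*, 4000 bp at *Eomes* and at the first *Rora* start, 3500 bp at *Gata3*, *Prdm1* and *Tcf7*, 3000 bp at the main *Bcl6* start and 2500 bp at *Tbx21*. Over 17812 genes the median was 2000 bp and the 90th percentile 3000 bp. The *Rora* and *Maf* stretches stop at both ends, and those of *Bcl6* and *Tcf7* at 1 end, where the captured windows stop, so those lengths are minimums. *Batf* had no such stretch: its start-site windows held 23.4%, 31.6% and 21.4% in the saline mice, and 4062 of the 17812 genes also had none. The letters CG occur 9 times in the RefSeq promoter of *Batf*, from 250 bases before to 50 after the start, which is more than in 54.2% of 32851 promoters. The other 7 genes with an entry, *Maf* not among them, hold between 10 at *Eomes* and 45 at the CpG-richer *Tcf7* start, where the median promoter holds 7.

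OVA vs. saline addresses what the allergic response changes. Over whole genes, *Batf* was lower in the OVA-induced mice and *Maf* and *Prdm1* were higher. *Batf* held 41.6%, 42.7% and 40.2% in the saline mice, 36.0%, 36.8% and 34.4% in the OVA-induced and 36.4%, 35.9%, 38.3% and 35.4% in the DSE-treated mice. The saline mice all lay above the rest. The difference of OVA minus saline was -5.79 ± 1.0 percentage points (SE; limma adjusted p = 0.00711), and it passed with each of the 10 mice left out in turn (largest adjusted p = 0.031). *Maf* held 10.9%, 10.0% and 11.0% in saline, 12.2%, 13.2% and 14% in OVA-induced and 12.2%, 12.4%, 13.2% and 12.9% in DSE-treated mice, a rise of 2.52 ± 0.57 points over saline in the OVA-induced mice (limma adjusted p = 0.0165). Without saline replicate 2, OVA replicate 2 or OVA replicate 3 the adjusted p of *Maf* was 0.065, 0.053 and 0.065. Gene levels include the 5 kb flanks. Of the 13 *Maf* windows 4 overlap its span, under the minimum of 5 for a gene-level test. The upstream windows chr8:115710501-115711500 and chr8:115711001-115712000 share most of their calls. With unweighted group means they rose by 12.6 and 12.3 points in OVA vs. saline. The gene-level rise and these windows are therefore not separate results. *Prdm1* held 50.1%, 49.3% and 50.1% in saline, 52.3%, 52.1% and 52.2% in OVA-induced and 51.1%, 52.0%, 51.3% and 51.1% in DSE-treated mice. Its saline mice lay below all others, and OVA minus saline was 2.39 ± 0.66 points (limma adjusted p = 0.0341). The *Prdm1* call was lost without any single saline or OVA-induced mouse (adjusted p between 0.053 and 0.115).

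The remaining genes did not pass at the gene level in OVA vs. saline. *Bcl6* came nearest, with 32.7% ± 0.61 (SD, n = 3) in saline and 34.7% ± 0.045 (SD, n = 3) in OVA-induced mice (limma adjusted p = 0.0584), followed by *Eomes* with 19.8% and 21.3% (adjusted p = 0.115). *Tbx21* stood at 45.6% and 45.5%, *Tcf7* at 55.2% and 55.6%, *Gata3* at 31.0% and 32.1% and *Rora* at 59.7% and 61.1%. In all, 2 of 9 genes were higher and 1 lower, where 11.7% of all genes were higher and 3.83% lower. The median difference was 1.33 points over the 9 genes and 1.02 over all genes. When the calls of a gene were summed instead of averaging its windows, so that deeper windows weigh more, *Batf* passed alone (adjusted p = 0.0235). Under that setting *Maf* had an adjusted p of 0.0707 and the *Prdm1* difference was -0.0039 on the log2 scale of M-values, the ratio of methylated to unmethylated calls, with an adjusted p of 0.977. With windows averaged and at least 50 calls in every mouse, *Eomes* passed besides *Batf*, *Maf* and *Prdm1*. Its difference was then 1.72 ± 0.52 points (SE, limma adjusted p = 0.0389).

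**Figure D2:**
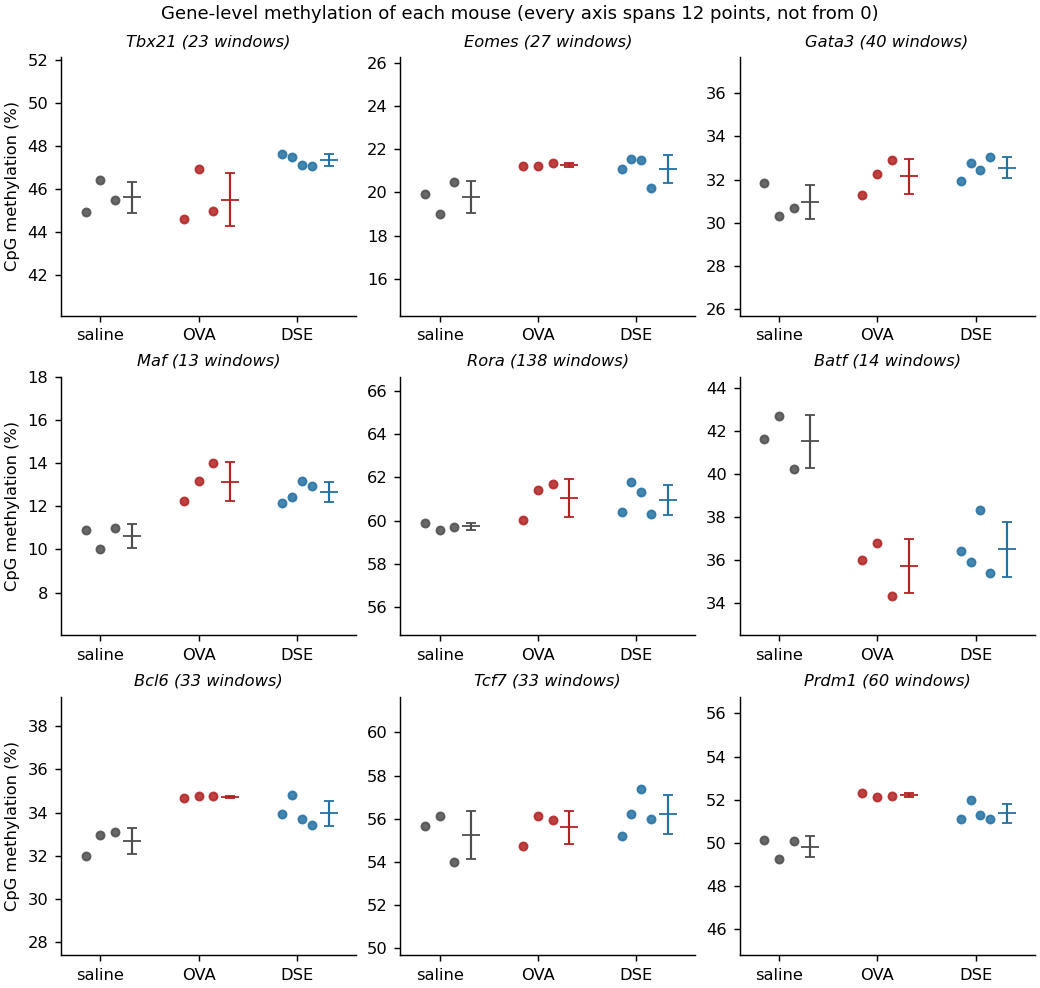
Mean CpG methylation (percent) over the windows of each gene for every mouse in saline, OVA and DSE groups (dots), with the group mean and SD (bars, n = 3, 3 and 4); each panel has its own axis of 12 points that does not start at 0. For *Batf* the saline mice, at 40.2 to 42.7%, lie above all OVA-induced and DSE-treated mice, and for *Maf* and *Prdm1* below them.

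Single windows were then called differentially methylated regions (DMRs) by a likelihood ratio test of the pooled calls where the adjusted p fell below 0.01 and the levels lay 10 or more points apart. This test leaves out the spread between mice, so limma on M-values, with an adjusted p under 0.05, is given beside it. In OVA vs. saline, 15 of 392 windows were hyper methylated, in 10 separate regions, and 5 hypo methylated, in 3 regions, against 4.75% and 2.56% of all windows. Of the 15, 9 lay in *Rora*, 4 in *Prdm1* and 2 in *Maf*; of the 5, 3 lay in *Batf* and 2 in *Rora*. *Tbx21*, *Eomes*, *Gata3*, *Bcl6* and *Tcf7* had none. limma passed 11 of 381 windows as higher and 1 as lower, against 2.25% and 1.49% of all windows. The windows past limma fell to 0 without saline replicate 1, saline replicate 2, OVA replicate 2 or OVA replicate 3, to 3 without saline replicate 3, and to between 5 and 7 without any 1 of the 4 DSE-treated mice, which enter only the estimate of the spread. With only the saline and OVA-induced mice in the fit there were 0 as well, here and over all windows.

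The largest of these differences that also passed limma lay upstream of *Prdm1*. At chr10:44476501-44477500, 18.3 kb from the curated start site, the saline mice held 40.9%, 36.2% and 39.6%, the OVA-induced mice 55.0%, 61.1% and 56.0% and the DSE-treated mice 53.2%, 57.2%, 54.2% and 54.0%. All saline mice lay below every other mouse. The pooled difference of OVA minus saline was 18.2 points, or 1.08 ± 0.15 on the log2 scale of M-values (SE; limma adjusted p = 0.021), and the overlapping window chr10:44476001-44477000 rose by 15.8 points (limma adjusted p = 0.028, and 0.057 to 0.093 without 1 of the 3 saline mice, OVA replicate 2 or OVA replicate 3). The window chr10:44476501-44477500 lost its limma call without saline replicate 1 or 2 or OVA replicate 2 or 3 (adjusted p between 0.056 and 0.076). The stretch printed first above lies in both windows.

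In *Rora*, the DMRs lay in introns and pointed both ways. In intron 2, 29.8 kb before the second start site, chr9:69259501-69260500 held 20.9%, 28.2% and 27.1% in saline, 38.9%, 40.2% and 44.5% in OVA-induced and 38.8%, 37.5%, 34.3% and 39.0% in DSE-treated mice. The saline mice did not overlap either other group. The difference of OVA minus saline was 15.8 points (limma adjusted p = 0.025; 0.063 to 0.088 without saline replicate 1 or 2 or OVA replicate 2 or 3). A difference of 20.9 points at chr9:69338501-69339500, the largest *Rora* DMR, rested on 40 to 76 calls per mouse and on saline replicate 2, which held 14% where the other saline mice held 50.7% and 55.3%; without that mouse the difference was 9.72 points, and without OVA replicate 2 or 3 the DMR call was lost as well. Its limma adjusted p was 0.24. In intron 1, chr9:68913501-68914500 and the window after it share the same calls, 47 to 129 per mouse, with 21.9% ± 3.0 (SD, n = 3) in saline and 34.7% ± 3.4 (SD, n = 3) in OVA-induced mice (limma adjusted p = 0.049, over 0.05 with each of 9 mice left out). The 1 window that passed limma as lower, chr9:68688001-68689000, named here after its value was seen, lay in intron 1 and held 87.0 to 91.0% in saline and 78.6 to 83.2% in OVA-induced mice (adjusted p = 0.0476).

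Upstream of *Maf*, chr8:115710501-115711500 is the first captured window past the unmethylated stretch, 4.1 kb from the start site. It held 39.1%, 36.0% and 38.8% in saline, 46.5%, 52.5% and 52.7% in OVA-induced and 49.0%, 48.8%, 52.4% and 48.3% in DSE-treated mice, so that all saline mice lay below the rest. OVA minus saline was 12.3 points (limma adjusted p = 0.034, and 0.068 to 0.11 without 1 of the 3 saline mice, OVA replicate 2 or OVA replicate 3, and 0.050 and 0.052 without DSE replicate 4 or 2). This window enters the gene-level mean of *Maf*, here and in DSE vs. saline, so it is not a result separate from that mean. The *Maf* start site itself stayed low, at 0.69% ± 0.28 in saline and 1.25% ± 0.15 in OVA-induced mice (SD, n = 3 each).

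At *Batf*, 0 of the 14 windows had a higher pooled level in the OVA-induced than in the saline mice, whereas each of the other 8 genes had windows on both sides. Over all windows 60.8% had a higher level. Neighbouring windows overlap, so the 14 are not separate observations. The largest difference lay just past the gene's end, at chr12:85710001-85711000, where the saline mice held 70.8%, 73.3% and 68.5%, the OVA-induced 64.5%, 56.7% and 48.8% and the DSE-treated 60.8%, 53.3%, 56.8% and 55.2%. The saline mice lay above all others. OVA minus saline was -13.4 points, a hypo methylated DMR with a limma adjusted p of 0.062 that was 0.033 without OVA replicate 1. The difference was -9.98 points, no longer a DMR, without OVA replicate 3. At the start site, chr12:85686001-85687000, the level was 25.5% ± 5.4 in saline and 15.3% ± 2.3 in OVA-induced mice (SD, n = 3 each, limma adjusted p = 0.083). The 2 start-site windows averaged gave -10.3 ± 2.8 points (SE, limma adjusted p = 0.0553). By pooled calls the first of them, at -9.9 points, was no DMR, and the second was a hypo methylated DMR. They are not separate results: their levels were the same in every mouse but OVA replicate 3, which had 517 and 506 calls in them. The *Batf* stretch printed above lies in the first window, outside their overlap, so its CpGs gave few or none of these calls.

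Smaller differences passed limma at *Eomes* and *Bcl6* without reaching 10 points. At chr9:118479501-118480500, in exons 1 and 2 of *Eomes*, the saline mice held 11.4%, 14.8% and 15.4%, the OVA-induced mice 20%, 20.3% and 22.3% and the DSE-treated mice 21.4%, 24.4%, 22.1% and 24.3%. Saline lay below all others, and OVA minus saline was 6.94 points (limma adjusted p = 0.046, between 0.060 and 0.14 with each of the 10 mice left out in turn). Downstream of *Bcl6*, chr16:23963001-23964000 held 76.9%, 73.1% and 73.6% in saline and 83.5%, 84.4% and 84.4% in OVA-induced mice, with 75.4%, 83.1%, 79.5% and 76.4% in DSE-treated mice. The OVA-induced mice lay above all others, by 9.55 points over saline (limma adjusted p = 0.042, 0.055 to 0.13 with 8 of the 10 mice left out in turn). The window 500 bp on holds the same calls and is not a separate result. At the start sites of all 9 genes 0 passed limma in OVA vs. saline, with 1, *Batf*, at an unadjusted p under 0.05.

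**Figure D3:**
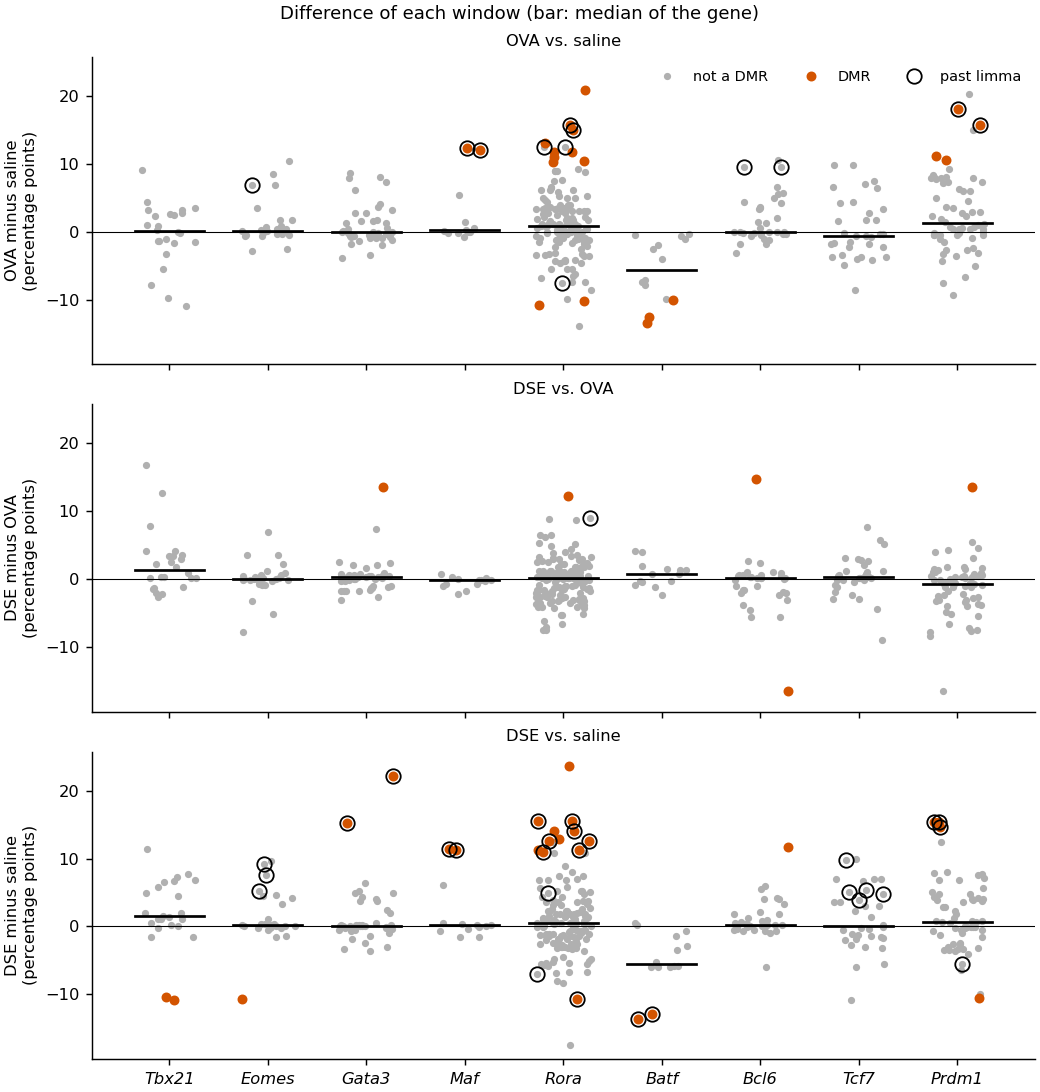
Difference in pooled methylation (percentage points) of every tested window of the 9 genes in each comparison; orange points are DMRs, open circles mark windows past limma and black bars the median of the gene. In OVA vs. saline all *Batf* windows lie below 0, and in DSE vs. OVA most windows lie within 10 points of 0, with 5 DMRs.

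DSE vs. OVA asks what the extract changed in challenged mice; it shares the OVA-induced mice with the comparison above. At the gene level 0 of the 9 genes passed limma, with 1, *Tbx21*, at an unadjusted p under 0.05, where 0.0322% of all genes were higher and 0.00358% lower. *Tbx21* held 44.6%, 46.9% and 45.0% in the OVA-induced and 47.6%, 47.5%, 47.1% and 47.1% in the DSE-treated mice, so the groups did not overlap, and DSE minus OVA was 1.81 ± 0.74 points (SE; limma adjusted p = 0.49). *Batf*, *Maf* and *Prdm1* differed by 0.79, -0.466 and -0.848 points (SE 0.94, 0.53 and 0.62). This answer turned with the weighting of windows. With summed calls, 4 of 9 genes passed as higher in DSE-treated mice: *Tbx21* by 0.32 ± 0.070 on the log2 scale of M-values (SE; adjusted p = 0.00432), *Eomes* by 0.32 ± 0.084 (0.011), *Gata3* by 0.23 ± 0.070 (0.0252) and *Bcl6* by 0.21 ± 0.072 (0.0388). For *Eomes* and *Bcl6* the direction flipped, since the averages over windows differed by -0.181 and -0.78 points. The median of all genes shifted by 0.12 under that setting, and 27.2% of all genes then passed as higher.

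In single windows, DSE vs. OVA gave 4 DMRs of higher and 1 of lower methylation among 392, against 0.898% and 0.725% of all windows, and limma passed 1 of 381 as higher and 0 as lower, against 0.347% and 0.0711%. Of the 381, 34 had an unadjusted p under 0.05, as did 41647 of all 421759 windows. The window past limma lay before the second start site of *Rora*, at chr9:69288501-69289500. There the saline mice held 13.0%, 14.8% and 12.1%, the OVA-induced mice 8.4%, 9.8% and 9.1% and the DSE-treated mice 17.5%, 18.6%, 19.5% and 17.1%. The 3 groups did not overlap, with OVA-induced mice lowest and DSE-treated mice highest. DSE minus OVA was 9.0 points (limma adjusted p = 0.016), but the adjusted p was 0.068, 0.058, 0.063 and 0.063 without OVA replicate 1, OVA replicate 3, DSE replicate 1 or DSE replicate 3. The stretch printed above for this window has 4 of its 19 CpGs. In OVA replicate 3, chr9:69288001-69289000, which also holds that stretch, had 91 calls. The window past limma had at least 858 in every mouse, so few of that mouse's calls came from the stretch. Averaged over the windows at both *Rora* starts, the level was 6.91% ± 0.21 (SD, n = 3) in OVA-induced and 8.18% ± 0.16 (SD, n = 4) in DSE-treated mice. That start-site difference of 1.27 ± 0.38 points (SE) had a limma adjusted p of 0.117 within 1 kb of the starts. Within 500 bp of the starts it was 1.51 points and passed (adjusted p = 0.00764). In that setting 5.80% of all start sites passed as higher and 0.219% as lower. At start sites 0 of 9 genes passed in DSE vs. OVA, with 1, *Rora*, at an unadjusted p under 0.05, where 2.67% of all genes were higher and 0.157% lower.

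The 5 DMRs of DSE vs. OVA lay at *Gata3*, *Rora*, *Bcl6* and *Prdm1*, and none of them passed limma. In exon 3 of *Gata3*, at chr2:9874001-9875000, the saline mice held 50.8%, 31.3% and 38.0%, the OVA-induced mice 44.6%, 49.7% and 56.4% and the DSE-treated mice 55.7%, 67.9%, 73.2% and 60.3%. The DSE-treated mice lay above the saline mice but overlapped the OVA-induced mice, and DSE minus OVA was 13.6 points (limma adjusted p = 0.42). Far upstream of *Prdm1*, chr10:44530001-44531000 held 17.8%, 14.5% and 17.3% in saline, 16.8%, 17.2% and 19.8% in OVA-induced and 37.1%, 26.3%, 34.4% and 26.4% in DSE-treated mice. All DSE-treated mice lay above the rest, whereas saline and OVA-induced mice overlapped. DSE minus OVA was 13.6 points there (limma adjusted p = 0.079). Upstream of *Bcl6*, chr16:23991001-23992000 held 40.1%, 45.1% and 43.7% in OVA-induced and 66.8%, 51.4%, 55.3% and 56.5% in DSE-treated mice, with 43.4 to 51.5% in saline, a difference of 14.8 points (limma adjusted p = 0.18). Downstream of *Bcl6*, chr16:23962501-23963500 went the other way. It held 45.8%, 54.8% and 50.7% in saline, 58.5%, 59.6% and 65.7% in OVA-induced and 47.4%, 47.8%, 46.2% and 37.4% in DSE-treated mice, so that the OVA-induced mice lay above both other groups. DSE minus OVA was -16.5 points (limma adjusted p = 0.09) and OVA minus saline 10.6 points, which was no DMR, on 93 to 142 calls per mouse. The *Rora* window chr9:69296501-69297500 rose by 12.3 points in DSE vs. OVA, and by 8.77 points, no longer a DMR, without OVA replicate 2.

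**Figure D4:**
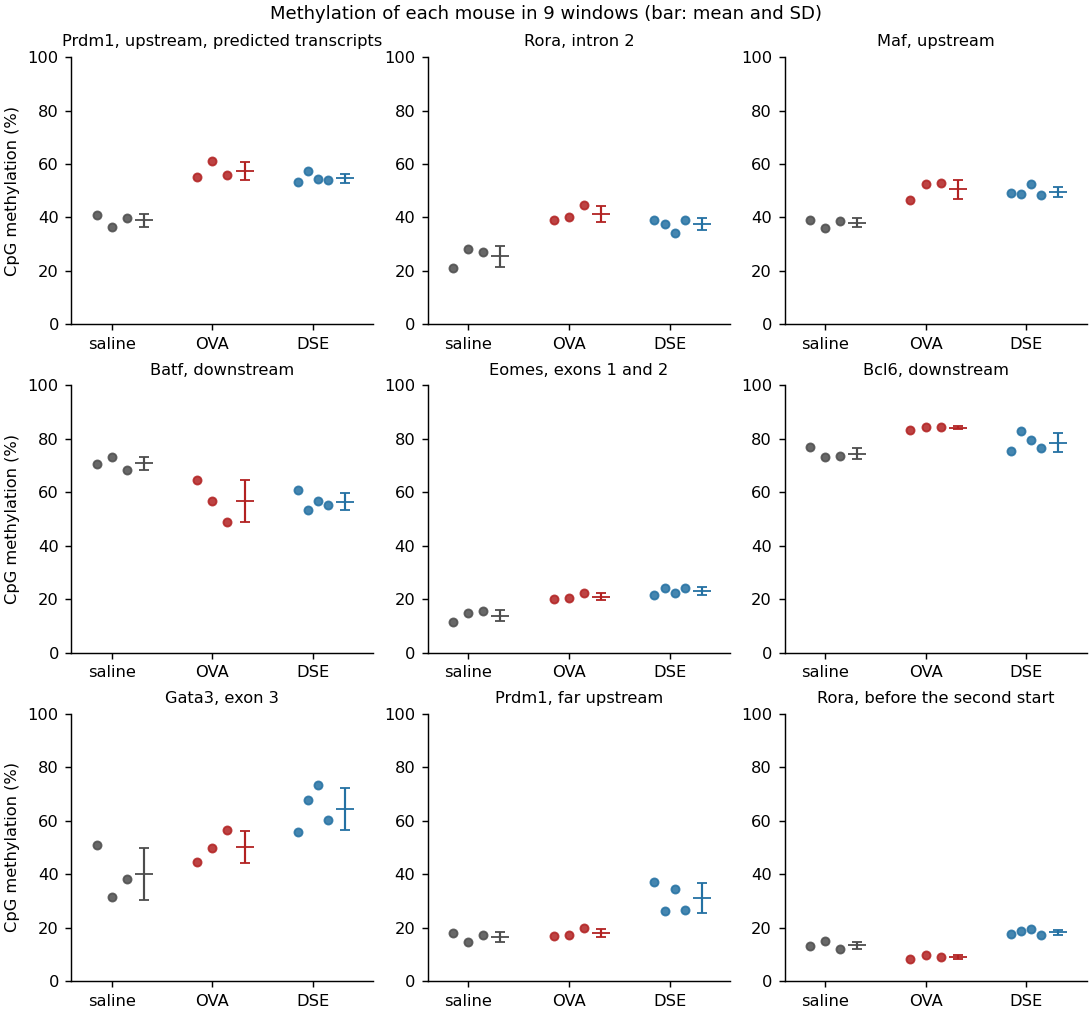
CpG methylation (percent) of every mouse in 9 windows (dots) with group mean and SD (bars) for saline, OVA and DSE groups (n = 3, 3 and 4). In the upper rows the saline mice stand apart from the OVA-induced mice, and far upstream of *Prdm1* the DSE-treated mice, at 26.3 to 37.1%, stand above both other groups.

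DSE vs. saline sets the treated, challenged mice against the saline mice; it shares the saline mice with the first comparison and the DSE-treated mice with the second. *Batf* differed by -5.0 ± 0.94 points (SE; limma adjusted p = 0.0063, past limma with each of the 10 mice left out) and *Maf* was higher by 2.06 ± 0.53 points (limma adjusted p = 0.0208, and 0.087 or 0.052 without saline replicate 2 or DSE replicate 4). These were 1 of 9 genes higher and 1 lower, where 17.2% of all genes were higher and 5.11% lower. With summed calls, *Tbx21*, *Eomes*, *Gata3*, *Maf* and *Tcf7* passed as higher and *Batf* as lower, with 36.1% of all genes higher and the median of all genes shifted by 0.17. With windows averaged and at least 50 calls in every mouse, *Eomes* passed besides *Batf* and *Maf*, by 1.69 ± 0.49 points (SE, limma adjusted p = 0.0253). In windows, 19 of 393 were hyper methylated in 12 regions and 7 hypo methylated in 4 regions, against 4.95% and 3.07% of all windows, and limma passed 23 of 381 as higher and 5 as lower, against 4.58% and 2.68%. The windows past limma numbered 8, 4 and 11 without saline replicates 1, 2 and 3, and 17, 5, 14 and 8 without DSE replicates 1, 2, 3 and 4.

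Several windows described for OVA vs. saline also passed limma in DSE vs. saline. The *Prdm1* window chr10:44476501-44477500 was 15.3 points above saline (limma adjusted p = 0.012, the lowest of the 9 genes' windows in this comparison), the *Rora* intron 2 window chr9:69259501-69260500 12.6 points (0.025), the *Maf* window chr8:115710501-115711500 11.4 points (0.023) and the *Eomes* window chr9:118479501-118480500 9.15 points (0.015, under 0.05 with each of the 10 mice left out). The *Batf* window past the gene's end differed by -13.7 points (0.036). Nearer the *Eomes* start site, the overlapping window chr9:118479001-118480000 held 4.6%, 5.2% and 6.3% in saline and 6.3%, 7.2% and 8.4% in OVA-induced mice. The DSE-treated mice held 9.6%, 11.7%, 9.7% and 11.3% there, above all others. DSE minus saline was 5.23 points, no DMR (limma adjusted p = 0.0127, under 0.05 with each of the 10 mice left out). The *Maf*, *Rora* and *Batf* calls were lost with 6, 5 and 7 of the 10 mice left out in turn, with adjusted p-values up to 0.0862, 0.0725 and 0.121. At *Gata3*, the exon 3 window was 22.2 points higher (limma adjusted p = 0.031, and 0.059 to 0.108 without saline replicate 2 or 3 or DSE replicate 2, 3 or 4), with no overlap between the groups. The far upstream window of *Prdm1* was 14.7 points higher (0.015; 0.061 without saline replicate 2). In exon 7 of *Prdm1*, chr10:44439001-44440000 held 87.9%, 87.2% and 89.0% in saline, 84.5%, 85.6% and 84.4% in OVA-induced and 82.3%, 81.7%, 82.4% and 83.7% in DSE-treated mice, without overlap between the 3 groups. Of the comparisons, DSE vs. saline passed limma there (-5.56 points, adjusted p = 0.02, and 0.054 to 0.059 without 1 of the 3 saline mice or DSE replicate 2). In intron 1 of *Tbx21*, chr11:97103001-97104000 held 74.1%, 78.0% and 68.8% in saline and 61.9%, 61.8%, 60.2% and 65.7% in DSE-treated mice, a hypo methylated DMR by -10.9 points (limma adjusted p = 0.059) that ended without saline replicate 2 (-9.01 points), while without OVA replicate 1 the limma adjusted p was 0.0399. In intron 5 of *Eomes*, chr9:118482501-118483500 was a hypo methylated DMR by -10.6 points on 48 to 187 calls per mouse, which ended without saline replicate 1 or 3 or DSE replicate 2 or 4 (-5.75 points without saline replicate 3; limma adjusted p = 0.14). The *Bcl6* window chr16:23991001-23992000 was 11.7 points higher, and 8.16 points without DSE replicate 1 (limma adjusted p = 0.11).

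The start site of *Tcf7* was the 1 start site to pass limma in DSE vs. saline, with 25.1%, 24.4% and 25% in saline, 26.3%, 25.9% and 26.8% in OVA-induced and 27.3%, 26.7%, 26.6% and 27.7% in DSE-treated mice. Saline lay below all others. The rise of 2.28 ± 0.67 points (SE) had a limma adjusted p of 0.042, over 0.05 with 9 of the 10 mice left out in turn, where 14.4% of all start sites were higher and 3.52% lower. The average includes windows inside the gene at 62.3% and 79.5% in saline. Of the 6 windows that make up chr11:52282001-52285500, 5 passed limma as higher (adjusted p between 0.031 and 0.046; chosen after their values were seen), with means of 4.59 to 9.70% in saline and 8.61 to 16.7% in DSE-treated mice, none of them a DMR. The stretch under 10% methylation at *Tcf7* ran 2000 bp in OVA-induced and 1500 bp in DSE-treated mice. In saline it ran at least 3500 bp, up to where the captured windows stop. In the other genes the stretch at the main start was the same in the 3 groups or differed by 500 bp. In the window over the main start site, the mean of each group lay between 0.693% and 2.01% for all genes but *Batf*.

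Other regulators of helper T cells were counted as a list of 38 genes, of which 37 could be measured over the gene. In OVA vs. saline 5 were higher and 3 lower, in DSE vs. OVA 0 passed, and in DSE vs. saline 8 were higher and 4 lower. Over all genes the shares for OVA vs. saline were 11.7% higher and 3.83% lower, and for DSE vs. saline 17.2% and 5.11%. The higher counts of the list over the gene lie near that background, and the lower counts, on few genes, above it. Among those named by the rule, *Ikzf1*, which encodes the lymphoid factor Ikaros, held 59.4%, 59.5% and 59.1% in saline and 53.9%, 51.3% and 50.6% in OVA-induced mice, a difference of -7.41 ± 1.1 points (SE; limma adjusted p = 0.00352). *Id3*, an inhibitor of E proteins, was 4.85 points higher in OVA vs. saline (limma adjusted p = 0.0123). In DSE vs. saline *Ikzf1* differed by -6.58 points and *Stat6*, the signal transducer of IL-4, by 5.0 points (limma adjusted p = 0.00274 and 0.00797). The median over the list was 0.65 points in OVA vs. saline, below the 1.02 over all genes. At start sites, with 36 measured, 3 were higher and 6 lower in OVA vs. saline. The shares of all start sites were 4.56% and 2.64%. In DSE vs. OVA 0 passed, and in DSE vs. saline 5 were higher and 8 lower, where the shares were 14.4% and 3.52%. Whether the list differs from other genes was not tested.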

How the data were processed

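Lung DNA of 10 mice (saline n = 3, OVA n = 3, DSE n = 4) was captured, bisulfite converted and sequenced; groups follow the labels. The authors deposited counts of methylated and unmethylated CpG calls per 1000 bp window (step 500 bp, mm10), without normalization and with at least 10 calls in every mouse. The submitters' processing notes name cutadapt 1.10, Bismark 0.19.0 and methylKit 1.0.0. Coverage ranged from 306656737 to 410836272 calls per mouse, with calls in overlaps counted again.

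From these counts, windows with at least 20 calls in each mouse used were tested. DMRs came from a likelihood ratio test of logistic models on calls pooled by group, with Benjamini-Hochberg adjustment over all windows. limma 3.58.1 (R 4.3.3, 2-sided) fitted M-values with a pseudocount of 1, and the mean percent over the windows of a gene (at least 5) or of its curated RefSeq start sites (within 1 kb), with all 10 mice in 1 fit and an adjusted p under 0.05. Its p-values set a difference between groups against the spread between mice within groups.

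Windows were named by rule: for each gene and comparison the DMR with the largest difference, the 15 windows of lowest limma p past the threshold, and the window over the main start site. Of the list of other regulators, the 3 genes with the largest gene-level difference past limma were to be named, and 1 result is not reported here. Genes, lists and rules were chosen with earlier results of these data known. Alternatives changed the minimum of calls, pseudocount, thresholds, window overlap and weighting, flanks, block and mice. The tests were tried on simulated data first. Sequences and gene positions are from RefSeq, GRCm38, whose C57BL/6 bases can differ from those of BALB/c.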

Additional observations from a re-analysis of the deposited data

Results flagged for a closer look

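In groups of 4 mice, a mouse was marked where its gap to the nearest of the other mice, divided by the range of the group, passed the 95% critical value of Dixon's test. Of 50 sets of DSE-treated mice tested, 4 were marked, and chance marks about 1 in 20. DSE replicate 3 stood above the other DSE-treated mice in both overlapping windows upstream of *Maf*, with 52.35% at chr8:115710501-115711500 and 52.22% at chr8:115711001-115712000, which share most of their calls. DSE replicate 4 held 0.8259% at the start site of *Rora*, chr9:68653501-68654500, below the other DSE-treated mice. The same mouse held 37.4% downstream of *Bcl6*, at chr16:23962501-23963500, where the other DSE-treated mice held 46.2 to 47.8%. The causes were not tested.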

How the results depend on the processing

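With an F test scaled by the overdispersion among mice, the DMRs of these genes numbered 0 in each direction of every comparison, as they did with limma at an adjusted p under 0.01. Windows past limma at an adjusted p under 0.01 also numbered 0 in every comparison. At 20 points, OVA vs. saline kept 1 DMR of higher and 0 of lower methylation, DSE vs. OVA 0 and 0, and DSE vs. saline 2 and 0. For windows that do not overlap, OVA vs. saline gave 7 higher and 2 lower DMRs, DSE vs. OVA 0 lower, and DSE vs. saline 10 and 4, and 6, 0 and 16 windows past limma in the same order, where fewer windows were tested; 2 start sites passed in DSE vs. saline. Unweighted group means gave 8 lower DMRs for OVA vs. saline. Without the 5 kb flanks, OVA vs. saline had 3 lower DMRs, DSE vs. OVA 2 higher and 0 lower, and DSE vs. saline 4 lower. With only the compared groups in the fit, 0 windows passed limma for OVA vs. saline and 0 start sites for DSE vs. saline. With M-values of summed calls, 1, 4 and 6 genes and 1, 2 and 2 start sites passed, for OVA vs. saline, DSE vs. OVA and DSE vs. saline in turn. In the same order, 3.89%, 23.9% and 26.0% of all start sites were then higher and 3.51%, 0.496% and 2.36% lower. Of all genes, 6.78%, 27.2% and 36.1% were higher and 5.17%, 2.44% and 3.89% lower. A minimum of 50 calls passed 1 start site for OVA vs. saline and 2 for DSE vs. saline, and 500 bp around the start site passed 1 in DSE vs. OVA and 2 in DSE vs. saline. Within 500 bp, 5.80% of all start sites were higher and 0.219% lower in DSE vs. OVA. In DSE vs. saline the shares were 14.1% and 2.64%. These causes were not tested.

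Leaving out 1 mouse at a time gave 11 to 20 higher and 1 to 10 lower DMRs for OVA vs. saline, with 10 without saline replicate 3, 9 without OVA replicate 1 and 1 without OVA replicate 3. It gave 4 to 5 and 1 to 3 in DSE vs. OVA, with 3 without OVA replicate 2, and 18 to 23 and 4 to 9 in DSE vs. saline, with 4 without saline replicate 2 or DSE replicate 4. Windows past limma ranged from 0 to 13, 0 to 1 and 4 to 29 in the 3 comparisons, genes from 1 to 3, 0 to 0 and 1 to 2, and start sites from 0 to 0, 0 to 0 and 0 to 1. Genes past limma fell to 1 without saline replicate 2, OVA replicate 2 or OVA replicate 3 in OVA vs. saline, and without saline replicate 2 or DSE replicate 4 in DSE vs. saline. The window that passed in DSE vs. OVA was lost without OVA replicate 1, OVA replicate 3, DSE replicate 1 or DSE replicate 3. Differences at the named windows were also taken with unweighted group means and with 1 mouse left out. Of these values, 269 kept their direction and DMR status, 13 lost the DMR call, 2 gained it and 0 reversed. Windows that were no DMR and stayed so are among the 269. Limma calls and the F test did not enter this count. Most of these windows were chosen in the same data for a large difference or a low p, so few reversals could occur.

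The labels give replicate numbers but do not say that mice of the same number are paired. Correlations of same-numbered mice of different groups ran from -0.019 to 0.0369 over 9 pairs, and those of other mice from -0.0339 to 0.0255 over 24 pairs. These correlations near 0 are not of the methylation levels themselves, which were alike between mice. They cannot decide whether the mice were paired. With a replicate block, 0 windows passed limma in each comparison, 1 gene (DSE vs. saline) and 0 start sites (DSE vs. saline), and OVA vs. saline had 15 higher and 5 lower DMRs, DSE vs. OVA 5 and 1, and DSE vs. saline 19 and 5.

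Depth limits the precision of windows such as that of *Rora* at chr9:69338501-69339500, where 40 calls in OVA replicate 2 gave 70.0% with a 95% Wilson interval from 54.6% to 81.9%.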
